A study of Drosophila melanogaster with 4 samples.

Results

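The NK homeobox cluster genes are tin, bap, lbl, lbe, C15 and slou, which lie close together on chromosome arm 3R, and Dr, which lies farther along the same arm. They were chosen by name, with earlier results of these data known, and all 7 were found among the 15627 named genes of the expression table. RNA was measured in wing imaginal discs, larval tissue from which the wing and much of the thorax develop, with 1 library from Polycomb RNAi larvae and 1 from wild-type larvae of the third instar, all reared at 25 °C. The Polycomb RNAi discs carried the driver P{Act5C-GAL4}25FO1, which makes GAL4 from an actin promoter in most cells, and the transgene UAS-dsRNA Polycomb, a double-stranded RNA against the gene Polycomb (Pc). The wild-type larvae were the driver line itself, with P{Act5C-GAL4}25FO1 over the balancer CyO, y+, so both groups carry the driver, and both carry the alleles y1 and w*. The balancer is named for the wild type only. The labels do not say how many larvae or discs went into a library.

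NK genes encode homeodomain transcription factors that are ancient companions of the Hox genes in animal genomes. In Drosophila embryos they act mostly in mesoderm and nervous system, where they specify heart, gut muscle, single body wall muscles and columns of neural precursors. Polycomb is the chromodomain subunit of the repressive complex PRC1, which binds histone H3 methylated by PRC2 and keeps developmental regulators, NK genes among them, silent outside their own tissues. The wing disc is mainly epithelium, with a layer of myoblasts and pieces of trachea attached to it.

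The values are FPKM, fragments divided by transcript length and by the library's mapped fragments, so levels can be compared between genes. With 1 library for each genotype there is no replicate error and no test, and "higher" and "lower" below compare these 2 libraries only. In bulk tissue, fewer cells of a type and less RNA per cell cannot be told apart. The difference given for a gene is log2((Polycomb RNAi FPKM + 1)/(wild-type FPKM + 1)), whose pseudocount of 1 shrinks the difference of a weakly expressed gene. A gene was tested for a 2-fold difference on this scale if it reached 1 FPKM in either library.

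The tissue was checked by its markers, and the targeted gene was read out. All 11 markers of wing disc epithelium reached 1 FPKM in both libraries, among them the wing pouch gene nub (43.8 FPKM in Polycomb RNAi and 83.5 FPKM in wild type). Pc RNA stood at 12.96 FPKM in Polycomb RNAi and 14.6 FPKM in wild type, a log2 difference of -0.16, so no clear reduction of Pc RNA was seen. The table does not separate transcripts of the gene from those of the RNAi transgene, and the knockdown could not be checked from it. Of all genes, 8500 reached 1 FPKM in Polycomb RNAi and 8335 in wild type.

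The NK genes fell into 3 classes by level. Dr was abundant, C15 was moderately expressed, and the other 5, tin, bap, lbl, lbe and slou, lay under 0.3 FPKM in wild type. In Polycomb RNAi, lbl alone of those 5 passed 1 FPKM. Dr supplied 74.9% of the summed FPKM of the 7 genes in Polycomb RNAi and 89.5% in wild type. The order of the levels in Polycomb RNAi was Dr, C15, lbl, tin, slou, with bap and lbe both listed at 0. In wild type it was Dr, C15, lbl, bap, tin, slou, with lbe listed at 0. Neighbours in the lower part of this order cannot be ranked with confidence, since there is no spread to set them against.

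**Figure D1:**
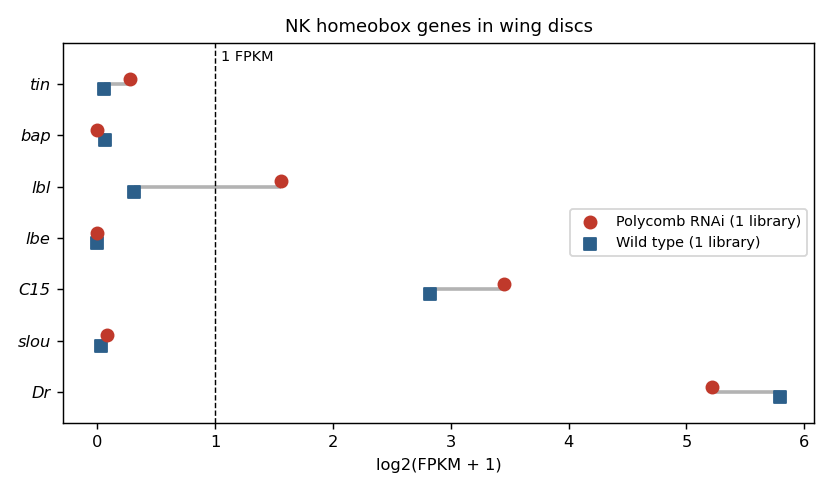
Level of each NK gene as log2(FPKM + 1), with a circle for the Polycomb RNAi library, a square for the wild-type library and a grey line joining them; the dashed line marks 1 FPKM. Only Dr, C15 and, in Polycomb RNAi, lbl lie right of that line, and lbl crosses it between the libraries (1.94 FPKM in Polycomb RNAi and 0.236 FPKM in wild type).

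The ladybird genes lbl and lbe are neighbours that arose by duplication and specify particular heart cells and body wall muscles in the embryo. The lbl gene had 1.94 FPKM in Polycomb RNAi, against 0.236 FPKM in wild type. That is a ratio of 8.21 in FPKM. On the log2 scale with the pseudocount it is 1.25, the single difference of at least 2-fold among the NK genes. Even so the level in Polycomb RNAi was low, with 49.3% of all genes below it, and 38.2% below the level in wild type. Of the 8800 tested genes, 262 had a larger positive difference than lbl. Of the 131 tested genes within 2-fold of its wild-type level, 35 did, and 73.3% had a smaller one; all 131, like lbl, passed the minimum through the Polycomb RNAi library alone. Its sister gene lbe was listed at 0 in both libraries, as were 66.5% of the 4170 genes at 0 in wild type. Thus the 2 ladybird genes differed from each other in Polycomb RNAi discs, at 1.94 FPKM for lbl and 0 for lbe. Reads that match both copies could have been divided between them, and the rule for this is not stated in the labels.

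The gene tin, a relative of vertebrate Nkx2-5, is required for the heart and the dorsal mesoderm, and bap, a relative of Nkx3 genes, acts after it in the visceral mesoderm that forms gut muscle. The tin gene had 0.213 FPKM in Polycomb RNAi and 0.0383 FPKM in wild type, a ratio of 5.55, which the pseudocount of 1 reduces to a log2 difference of 0.22. The bap gene was listed at 0 in Polycomb RNAi and at 0.0449 FPKM in wild type. The gene slou, which sets the identity of a few muscle founder cells and neurons, had 0.0593 FPKM in Polycomb RNAi and 0.0214 FPKM in wild type, a ratio of 2.77. So tin and slou were higher and bap lower in Polycomb RNAi, all at levels below the minimum for testing. Of the 2035 genes above 0 and under 0.3 FPKM in wild type, 49.9% were higher in Polycomb RNAi by any amount and 18.4% were listed at 0 there.

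Values this low may carry traces of whole reads. Where a gene holds few reads, the ratio of its 2 values takes steps, and for 426 low genes (0.005 to 0.3 FPKM in each library, values of 6 digits or fewer) the ratio of Polycomb RNAi to wild type clustered at 0.949. Within 5% of that ratio lay 24.6% of these genes, and 12.2% and 6.10% lay within 5% of 2 and 3 times it. The ratio is the most common one among these same genes, and shares between the steps were not computed. The figures therefore cannot tell steps from a smooth spread of ratios. By its values tin is among these genes, while bap and slou are not. The absolute depth is not known, so neither the number of reads behind tin, bap and slou nor a counting interval is given.

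C15, also called clawless and related to vertebrate Tlx genes, specifies the claw-bearing tip of the leg together with the homeobox gene al. It had 9.94 FPKM in Polycomb RNAi and 6.09 FPKM in wild type, which are 1.63-fold apart. Its log2 difference was 0.63. The gene was therefore higher in Polycomb RNAi but within 2-fold. Its difference lay above that of 92.3% of all tested genes, and above that of 93.1% of the 1579 tested genes whose wild-type level was within 2-fold of its own. The quartiles of those 1579 genes were -0.23 and 0.18. Over the same libraries al was lower in Polycomb RNAi (12.3 FPKM, against 38.4 FPKM in wild type), so these partners in the leg lay on opposite sides of equality.

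Dr, also called msh and the fly relative of vertebrate Msx genes, marks the dorsal column of neural precursors in the embryo and, in the wing, acts after the selector gene ap in dorsal cells. It had 36.3 FPKM in Polycomb RNAi, against 54.6 FPKM in wild type, a ratio of 0.665. The log2 difference was -0.58, within 2-fold, and only 580 of the 8800 tested genes (6.59%) had a more negative one. Among the 2839 tested genes within 2-fold of its wild-type level the share was 3.45%, and their quartiles were -0.12 and 0.08. Its rank among all genes was 2996 in Polycomb RNAi and 2016 in wild type. The level of Dr was 3.65 times that of C15 in Polycomb RNAi and 8.96 times in wild type.

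In all, 3 of the 7 NK genes were tested, and 1 of them, lbl, was higher in Polycomb RNAi by 2-fold or more, while none was lower by as much. Of the 8800 genes tested, 4.41% were higher by 2-fold or more and 3.20% at least 2-fold lower, 7.61% together. Because lbl passed the minimum through the Polycomb RNAi library alone, it had to be higher there, though not by 2-fold. Its count is a description. Over the 5 NK genes under 0.3 FPKM in wild type, 1 reached 1 FPKM in Polycomb RNAi, as did 216 of all 6205 such genes (3.48%). With 5 genes, that count does not set the NK genes apart from other silent genes. The median log2 difference was 0.63 over the 3 tested NK genes, against -0.0032 over all tested genes. That 0.63 is the value of C15, and lbl, which had to be higher, is 1 of the 3, so it too is a description. Over all 7 NK genes the median was 0.05, against 0 over all genes of the table.

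**Figure D2:**
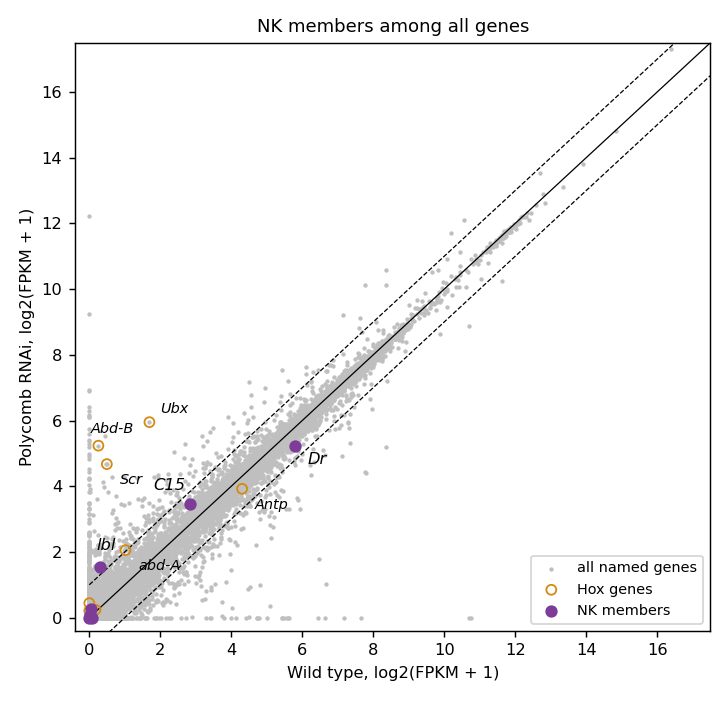
Level of every named gene in Polycomb RNAi (vertical) against wild type (horizontal), both as log2(FPKM + 1), with NK genes as filled and Hox genes as open circles; the solid line marks equal values and the dashed lines 2-fold. C15 lies above and Dr below the line of equal values, both inside the dashed lines, while lbl lies outside them at 1.94 FPKM in Polycomb RNAi, well below Ubx at 60.8 FPKM.

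The chromosomal neighbourhood was examined by gene order, taken from the Release 6 RefSeq gene table, because no annotation of the build named by the submitters, dm3, was used here. From tin to slou the order holds 18 genes, of which 6 are NK genes, and 1 of the other 12 was not matched to the expression table. Of the 11 matched genes between the NK genes, 7 were listed at 0 in both libraries, against 2772 of all 15627 named genes. The 7 included CheB93a and CheB93b, which precede lbl in the order, and the non-coding gene CR44089, which lies between lbl and lbe. The difference of lbl was thus not shared by the genes beside it. The 2 tested genes between the NK genes were Fancm, a DNA repair helicase gene listed as CG7922 (7.84 FPKM in Polycomb RNAi and 7.91 FPKM in wild type), and sp3, listed as CG7956 (16.7 and 13.6 FPKM in Polycomb RNAi and wild type). Both flank C15 among the expressed genes, and their log2 differences were -0.01 and 0.27, against 0.63 for C15.

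Outside the cluster, mod(mdg4), a chromatin protein gene next to tin, had 484.7 FPKM in Polycomb RNAi and 507.1 FPKM in wild type. InR, the insulin receptor gene just beyond slou, had 11.2 FPKM in Polycomb RNAi and 13.1 FPKM in wild type. CG15498, which lies between slou and InR, had 0.263 FPKM in Polycomb RNAi and was listed at 0 in wild type. So mod(mdg4) and InR, the nearest expressed genes on the 2 sides, had near equal levels in the libraries, while CG15498 stayed below 1 FPKM in both. With 5 matched genes on each side, 6 of the 10 were tested, and only microRNA entries were at least 2-fold apart. These were mir-998 (70.7 FPKM in Polycomb RNAi, listed at 0 in wild type) and mir-4951 (8.31 FPKM in Polycomb RNAi and 26.5 FPKM in wild type). Over all tested genes, 4.41% were higher and 3.20% lower by 2-fold or more. FPKM of entries as short as microRNAs is large for few reads. Around Dr, none of the 4 tested genes among the 5 on each side was 2-fold apart, with log2 differences between -0.26 and 0.35. The nearest expressed genes were ND-20L, listed as CG2014 (1.08 FPKM in Polycomb RNAi and 0.628 FPKM in wild type), and alph, which encodes a protein phosphatase (81.6 and 87.2 FPKM in Polycomb RNAi and wild type). No gene of the Release 6 table overlaps an NK gene, which matters because the libraries were unstranded.

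**Figure D3:**
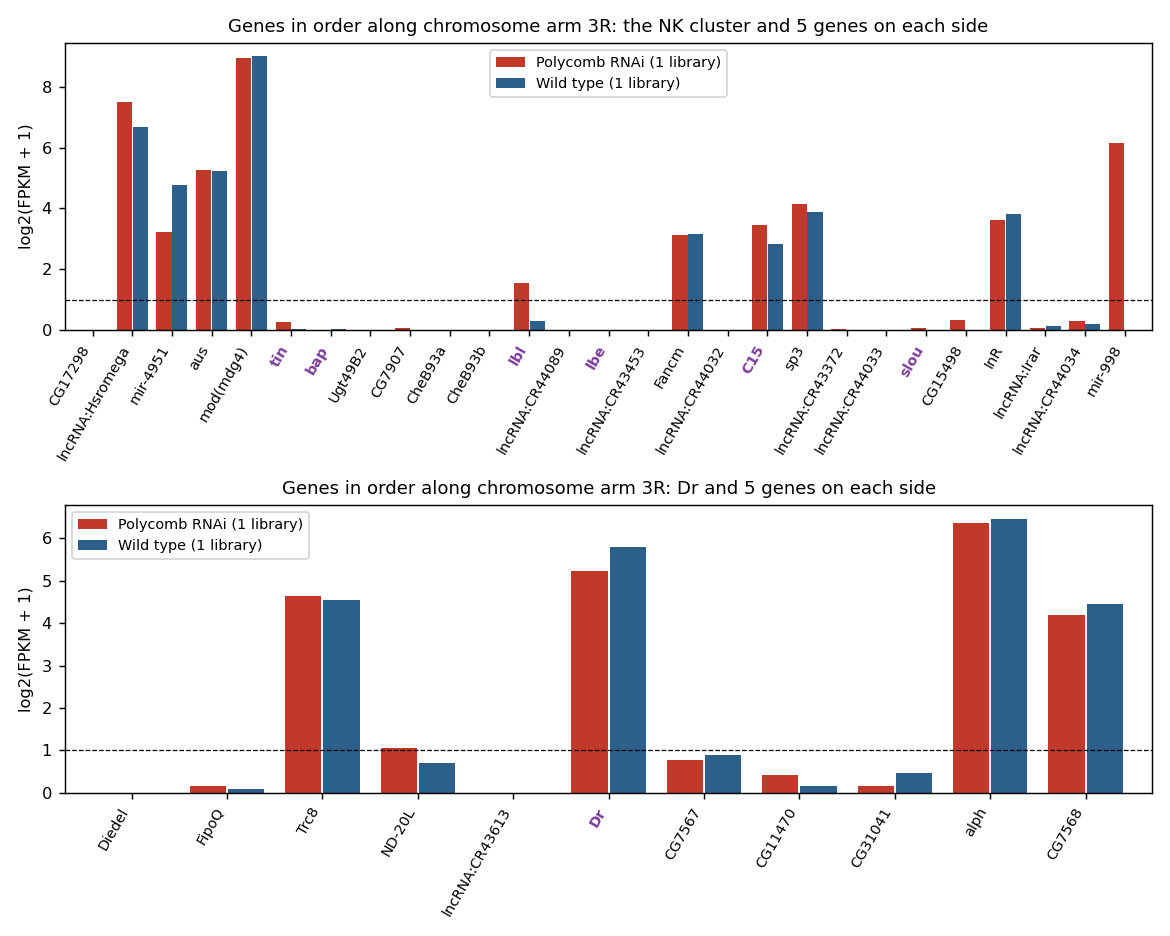
Levels as log2(FPKM + 1) of genes in their order along chromosome arm 3R, evenly spaced and not to distance, for the NK cluster (top) and Dr (bottom), with the Polycomb RNAi bar left of the wild-type bar and NK genes in bold; the dashed line marks 1 FPKM. The stretch from tin to lbe is at or near 0 apart from lbl, between expressed genes such as mod(mdg4) at 484.7 FPKM in Polycomb RNAi and Fancm at 7.84 FPKM.

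Other genes of the same homeobox class (NK-like) gave a further comparison. Counts in this list and those below stand beside 4.41% of all tested genes higher and 3.20% lower by 2-fold or more. All 17 NK-like genes were found, 9 were tested, none was higher in Polycomb RNAi by 2-fold or more, and 2 were lower to that extent. These were Dll, the distal appendage gene (13.1 FPKM in Polycomb RNAi and 36.7 FPKM in wild type), and scro, a relative of Nkx2-1 (0.276 and 1.73 FPKM in Polycomb RNAi and wild type). The most abundant of the rest differed less, with ems at 26.7 FPKM in Polycomb RNAi and 28.5 FPKM in wild type, and E5 at 29.3 FPKM in Polycomb RNAi and 24.2 FPKM in wild type. Of these 17 genes, 8 lay under 0.3 FPKM in wild type, like 5 of the 7 NK cluster genes, and none of the 8 reached 1 FPKM in Polycomb RNAi. Since only 3.48% of all genes under 0.3 FPKM in wild type did so, this count does not set the 8 apart. The nearest to 1 FPKM among the 8 was HGTX, a motor neuron gene related to Nkx6 (0.786 FPKM in Polycomb RNAi and 0.0805 FPKM in wild type). The median of the 9 tested genes was -0.09.

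Among the Hox genes, the best known targets of Polycomb repression, 3 had log2 differences above 4, against 1.25 for lbl. Of 8 Hox genes, 5 were tested, and 4 were higher in Polycomb RNAi by 2-fold or more, or 3 after scaling to the same sum. The share over all tested genes was 4.41%, or 3.96% after that scaling. The scaling uses a sum in which 1 gene, CG41421, held 16.4% in Polycomb RNAi and 9.41% in wild type. Counts after it therefore depend in part on that gene. The Hox genes Scr and Abd-B, like lbl, passed the minimum through the Polycomb RNAi library alone, so they had to be higher there. Abd-B had 36.7 FPKM in Polycomb RNAi, a level like that of Dr, but 0.194 FPKM in wild type, close to the 0.236 FPKM of lbl. So lbl and Abd-B had similar levels in wild type, while in Polycomb RNAi lbl stood at only 1.94 FPKM. The head gene Dfd, listed at 0 in wild type, had 0.358 FPKM in Polycomb RNAi and stayed below 1 FPKM, as tin did. Whether the NK genes differ from the Hox genes cannot be tested with 1 library for each genotype.

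The genes that act with tin, bap and the muscle identity genes in mesoderm did not share 1 direction. Of 20 cardiac and visceral mesoderm regulators, 15 were tested, with a median of 0.01. By 2-fold or more, 2 were higher in Polycomb RNAi and 3 lower. The higher ones were mid, a T-box gene of the heart (7.69 FPKM in Polycomb RNAi and 2.97 FPKM in wild type), and the LIM-homeobox gene tup (21.0 and 9.58 FPKM in Polycomb RNAi and wild type). With the Polycomb RNAi library scaled to the summed FPKM of wild type, tup lay within 2-fold, leaving 1 higher. The median was then -0.09, against -0.10 over all tested genes. The lower ones were the 3 Dorsocross genes, T-box genes that act with tin in the heart, such as Doc1 (11.8 FPKM in Polycomb RNAi and 39.6 FPKM in wild type). The cardiac factor gene Hand had 1.84 FPKM in Polycomb RNAi and 0.923 FPKM in wild type. The GATA factor gene pnr, which acts with tin in the heart and has its own role in the notum, had 26.6 FPKM in Polycomb RNAi and 17.1 FPKM in wild type. The visceral mesoderm gene bin, which acts after bap, was listed at 0 in both libraries. Thus tin and bap were near 0 in libraries where partners such as pnr, Doc1 and tup were well above 1 FPKM. Of the 20 regulators, 5, bin among them, were also below 1 FPKM in both libraries.

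Of 18 muscle identity transcription factors, 12 were tested, with a median of -0.21. By 2-fold or more, 1 was higher in Polycomb RNAi and 3 lower. The higher gene was tup again, within 2-fold after scaling to the same sum, and the lower ones were kn, vg and ap, which also pattern the wing. Of this list, 5 genes lay under 0.3 FPKM in wild type and none of them reached 1 FPKM in Polycomb RNAi, where 3.48% of all such genes did. Among the 5 were org-1 (0.0747 FPKM in Polycomb RNAi and 0.0269 FPKM in wild type) and Six4, listed at 0 in both. The muscle gene nau, the fly MyoD, had 0.752 FPKM in Polycomb RNAi and 0.627 FPKM in wild type.

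The partners of C15 and Dr in legs and dorsal wing included genes on both sides. The shares over all tested genes were 4.41% higher and 3.20% lower by 2-fold or more, or 3.96% and 3.58% after scaling to the same sum. Of the 16 genes in this list, 14 were tested, with a median of -0.61, and 1 was higher by 2-fold or more and 3 lower. The higher gene was bab2, a tarsal gene (28.7 FPKM in Polycomb RNAi and 11.2 FPKM in wild type), and the lower ones were al, Dll and ap. The dorsal selector ap, which acts before Dr, had 71.3 FPKM in Polycomb RNAi and 143.9 FPKM in wild type. Its log2 difference was -1.003, just past 2-fold, against -0.58 for Dr. Among the other genes of this list, Bx had a difference of -0.90, fng of -0.69 and Ser of -0.58, while caps, trn and Ten-m had 0.02, -0.04 and 0.29. In the same libraries 3 of the 11 markers of wing disc epithelium were at least 2-fold lower (vg, ap and pdm2), or 4 after scaling to the same sum, with a median of -0.29 and summed levels of 655.8 and 782.1 FPKM in Polycomb RNAi and wild type. The Bar genes, which act beside C15 in the tarsus, were closer to equal, with B-H1 at 4.10 FPKM in Polycomb RNAi and 3.39 FPKM in wild type.

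Of the genes that pattern the neural columns with Dr, vnd and ind, which mark the other columns, were at or near 0. The vnd gene was listed at 0 in Polycomb RNAi and at 0.0262 FPKM in wild type, and ind at 0 in both. In this list of 9 genes 5 were tested, with a median of -0.18. On the scale with the pseudocount, rho, which activates EGF receptor ligands, was the sole gene at least 2-fold apart (1.96 FPKM in Polycomb RNAi and 5.38 FPKM in wild type). The gene D went the other way, with 1.44 FPKM in Polycomb RNAi and 0.547 FPKM in wild type, a log2 difference of 0.66. In both libraries Dr thus had a far higher level than the other columnar homeobox genes.

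**Figure D4:**
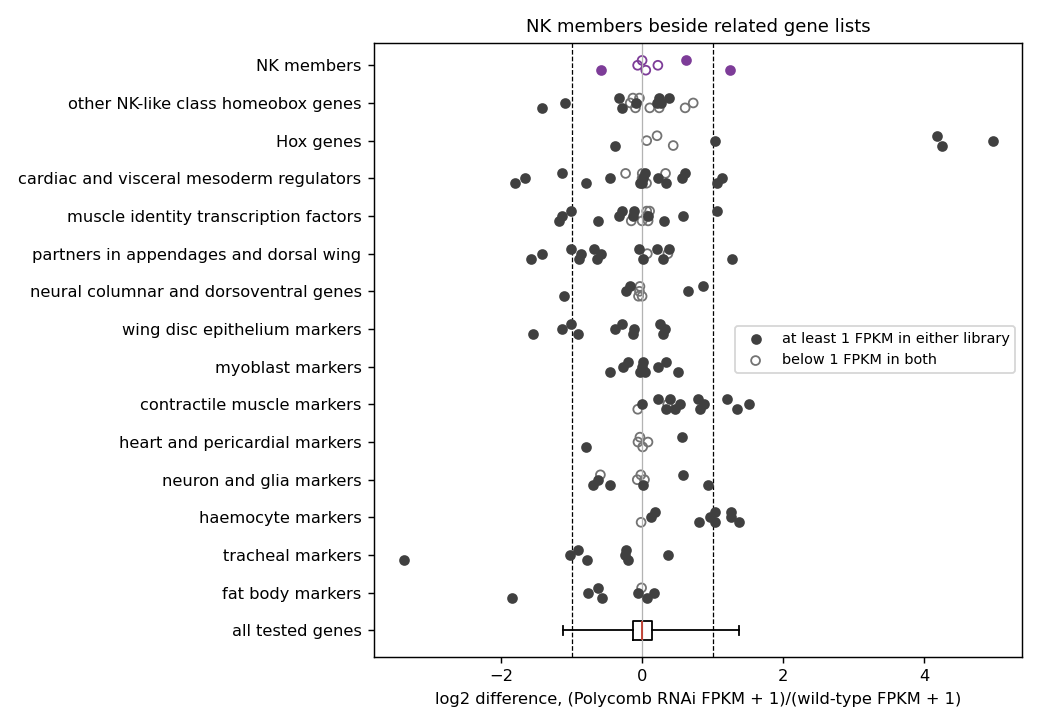
Log2 difference between Polycomb RNAi and wild type for each NK gene (top) and each gene of the other lists, filled where the gene reached 1 FPKM in either library and open where it did not; the bottom box shows the quartiles and the central 95% of all tested genes, and dashed lines mark 2-fold. The NK genes lie between -0.58 and 1.25, while 3 Hox genes lie beyond 4.

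Markers of the cell types in which NK genes are normally active, and of other cells attached to discs, were set beside these values. By 2-fold or more, 4.41% of all tested genes were higher in Polycomb RNAi and 3.20% lower. All 10 myoblast markers were tested and none was 2-fold apart, with a median of 0.01 and a summed level of 148.6 FPKM in Polycomb RNAi and 140.9 FPKM in wild type. After scaling to the same sum the median was -0.09, against -0.10 over all tested genes. Of 14 contractile muscle genes, 12 were tested, and 3 were higher in Polycomb RNAi by 2-fold or more, namely TpnC73F, wupA and Prm, with a median of 0.67 and summed levels of 593.1 and 481.8 FPKM in Polycomb RNAi and wild type. Of 6 heart and pericardial markers besides tin, 2 were tested and none was 2-fold apart, and the pericardial gene prc was listed at 0 in Polycomb RNAi and at 0.0413 FPKM in wild type. Of 10 neuron and glia markers, 6 were tested and none was 2-fold apart, with a median of -0.22, or -0.54 over 5 tested genes after scaling to the same sum. The neuronal gene elav had 7.66 FPKM in Polycomb RNAi and 10.8 FPKM in wild type, and the glial gene repo had 0.173 FPKM in Polycomb RNAi and 0.146 FPKM in wild type.

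After scaling to the same sum, the shares over all tested genes were 3.96% higher and 3.58% lower, against 4.41% and 3.20% before it. Of 10 haemocyte markers, 9 were tested, and 5 were higher in Polycomb RNAi by 2-fold or more, or 3 after scaling to the same sum. Their median was 1.03 and their summed level 114.6 FPKM in Polycomb RNAi and 68.0 FPKM in wild type. Of 8 tracheal markers, 2 were at least 2-fold lower, or 3 after scaling to the same sum, with a median of -0.51 and summed levels of 428.5 and 752.3 FPKM in Polycomb RNAi and wild type. Single genes weigh heavily in this sum. In the same order of libraries, obst-A had 20.2 and 220.0 FPKM, while verm, within 2-fold, had 226.5 and 267.0 FPKM. Of 8 fat body markers, 7 were tested and 1, Lsp1gamma, was at least 2-fold lower, with a median of -0.56 and summed levels of 2733 and 4289 FPKM in Polycomb RNAi and wild type. Lsp1gamma alone had 465.4 FPKM in Polycomb RNAi and 1675 FPKM in wild type, while Fbp1 was slightly higher in Polycomb RNAi (801.1 and 762.4 FPKM). The part of these cell types in the levels of lbl, C15 and Dr was not tested.

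The genes whose levels came nearest to those of the tested NK genes in both libraries, by distance on the log2(FPKM + 1) scale over all named genes, were CG18649, CG15829 and CG4151 for lbl, proPO-A1, CG30033 and CG30194 for C15, and CG8369, mnd and CG4866 for Dr. With 2 libraries this likeness covers 2 values for each gene. CG18649 had 1.89 FPKM in Polycomb RNAi and 0.218 FPKM in wild type, proPO-A1 had 9.96 and 5.99 FPKM, and CG8369 had 36.9 and 54.5 FPKM, in the same order of libraries.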

How the data were processed

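Total RNA of wing discs was sequenced without strand information, per the labels' protocols. The authors deposited gene-level FPKM values, 1 column for each RNA library. The genome build dm3 and the tools TopHat2 2.0.11, Bowtie 1.0.0, CASAVA 1.4, SICER and Cufflinks are listed in the submitters' processing notes, which do not assign them to files. The table holds no counts, and depth is unknown. Annotation and filters are not stated there. The deposited H4K20me1 peaks were not used here.

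From the FPKM, log2 differences (pseudocount 1), ranks and list counts were computed with Python 3.11.15, pandas 2.3.3 and numpy 2.4.6; the code was tested on simulated data. One row without a gene name was left out. Because FPKM is relative, CG41421, with 16.4% of the summed FPKM in Polycomb RNAi and 9.41% in wild type, can shift other values. It also enters the sums used for scaling. Alternatives were other pseudocounts, minimums and scalings. The members and lists were chosen with earlier results of these data known. From the lists, bib, nkd and ey (wrong by function), mb (ambiguous symbol), col and duf (second names) and, among heart markers, tin were removed after their values were seen. Named genes were all NK genes, list members at least 2-fold apart or among the most abundant, and neighbours in gene order. Others (such as Hand, HGTX, org-1, pnr, Bx, fng, Ser, caps, trn, Ten-m, n-syb, Rbp9, moody and D) were named after their values were seen.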

Additional observations from a re-analysis of the deposited data

How the results depend on the processing

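With 1 library for each genotype no replicate could be left out. No paired analysis was possible because each group holds 1 library and no test was made. The number of NK genes at least 2-fold higher in Polycomb RNAi was 1 (lbl) and became 0 with a pseudocount of 5, where the log2 difference of lbl was 0.41, and 0 with a minimum of 5 FPKM, which lbl does not reach. It was 2, lbl and tin, with a pseudocount of 0.1 and no minimum, a setting chosen after seeing the data, under which 11.2% of all genes were higher and the difference of tin was 1.18. No NK gene was at least 2-fold lower under any setting run. Scaling both libraries to the same sum moved the median of all tested genes from -0.0032 to -0.10. Relative to that shift the differences were 1.28 for lbl, 0.63 for C15 and -0.58 for Dr. The sums include CG41421, with 16.4% in Polycomb RNAi and 9.41% in wild type, so this scaling depends in part on 1 gene. C15 stayed between 0.43 and 0.70 and Dr between -0.68 and -0.53 over the settings run. Over the distinct genes of the other lists, 15 were at least 2-fold higher and 14 lower; the numbers were 20 and 16 with a pseudocount of 0.1, 7 and 8 with a pseudocount of 5, and 11 and 16 with the libraries scaled to the same sum. Of all tested genes, 4.41% were higher and 3.20% lower, and under those settings 6.48% and 4.72%, 1.52% and 1.22%, and 3.96% and 3.58%. The counts for genes neighbouring the NK genes were the same under every planned setting. Low levels limit what can be said of tin, bap, lbe and slou, whose values rest on an unknown number of reads.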
